A study of Mus musculus with 21 samples.

Results

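Chemically induced liver progenitors (CLiPs) at passage 1 (P1) that had been kept for 8 days without hepatic inducers were compared with freshly isolated hepatocytes, over all genes on the array. The comparison took the 3 arrays titled as uninduced P1 CLiPs and the 3 titled as fresh hepatocytes, which are 6 of the 21 arrays of the series. The CLiPs were at P1 and spent the 8 days without oncostatin M and dexamethasone, the agents that the study used for induction, and the fresh hepatocytes were taken with no culture. Both groups came from female C57BL/6 mice, whose age is not in the labels. The 3 arrays of P1 CLiPs at day 0, before the 8 days, were used as a further point of comparison, and the induced and late-passage CLiPs of the series are not described here. Whether the 3 samples of a group came from separate mice or dishes is not in the labels, and the p-values reflect only how far these samples spread, which may be technical. One fresh array, replicate 3, carries a P1 passage in its labels and was kept with the fresh group by its title.

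Hepatocytes make most plasma proteins, detoxify drugs with cytochrome P450 enzymes, turn ammonia into urea and release glucose and bile acids. They do this under a set of liver transcription factors, such as HNF4alpha, HNF1alpha and C/EBPalpha. CLiPs are proliferating cells obtained by culturing hepatocytes with small-molecule inhibitors. They are described as bipotent, that is, able to turn towards hepatocytes or towards cholangiocytes, the cells that line bile ducts. The comparison asks how far these cells, left without inducers, stand from the cells they were derived from.

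Levels are log2 processed signals relative to the 75th percentile of the array, so a level of 0 is the 75th percentile, and levels of different genes are not comparable. A log2 fold change is the level in P1 uninduced day-8 CLiPs minus that in fresh hepatocytes. Genes were called higher or lower at a Benjamini-Hochberg adjusted p under 0.05 from limma and a change of at least 2-fold, and "rose" and "fell" are used of called genes only. A gene is called dim in a group if it was well above background on none of its 3 arrays. Its change is then a minimum, written as at least a given fold, where the dim level is set no lower than the dimmest probe that was well above background on that array. The 75th percentile signal was 692 to 756 on the CLiP arrays and 291 to 332 on the fresh arrays. Of all probes, 51.7% to 56.2% were well above background on the CLiP arrays and 46.1% to 46.8% on the fresh arrays. The 100 brightest probes held 13.9% to 14.2% of the signal in CLiPs, against 19.5% to 19.9% in fresh hepatocytes. Levels correlated at 0.992 to 0.994 among the CLiP arrays, at 0.982 to 0.991 among the fresh arrays, the one with the P1 label included, and at 0.697 to 0.713 between the groups. The fresh arrays lay on 3 slides and the P1 arrays on 2 other slides, so slide and group cannot be told apart.

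Large numbers of genes differed in both directions. Of 20226 genes tested, 4836 rose (23.9%) and 5144 fell (25.4%), 49.3% in all. Changes of more than 5 on the log2 scale were found for 602 genes that rose and 642 that fell. Of the genes that rose, 1919 were dim in fresh hepatocytes, and of those that fell, 555 were dim in the CLiPs. The median log2 fold change of all genes was -0.03. The 3 arrays of one group lay on one side of the 3 of the other for 9905 of the 9980 called genes. The thresholds of the call favour such a separation, so the count adds little to it. Some genes not called, such as Foxa2, were separated too, and the share over all genes tested was not counted. Gene lists were written from general knowledge, and of 1322 entries 1319 were on the array and 1203 were tested. A gene could enter the test by being bright in 1 group alone, so list counts are descriptions, to be read beside 23.9% and 25.4%.

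**Figure D1:**
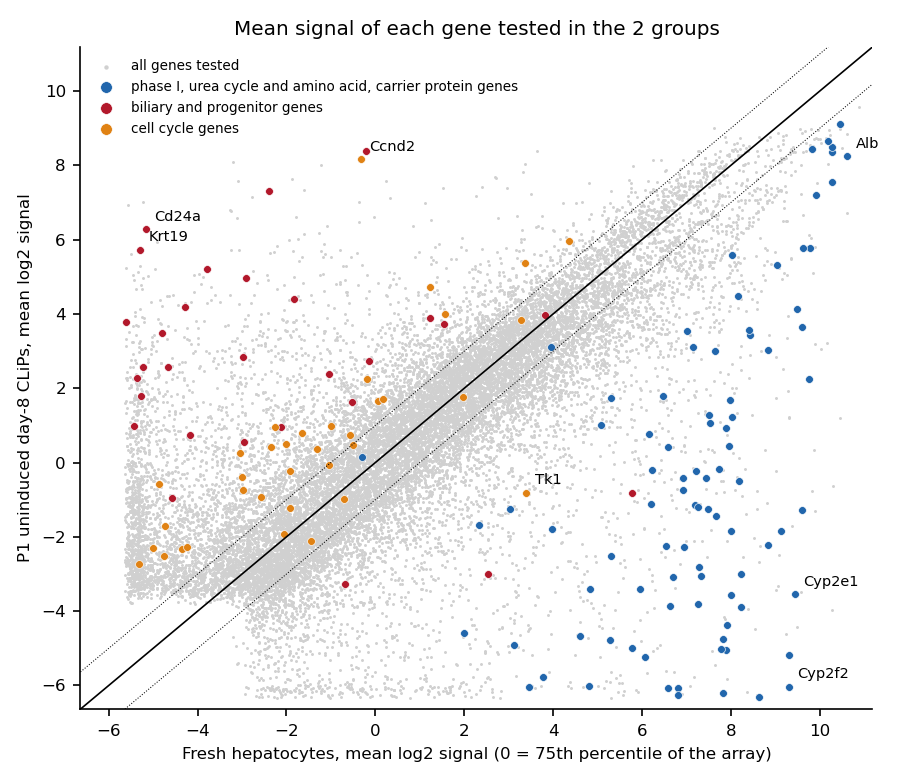
Each point is 1 of the 20226 genes tested, with its mean log2 level over 3 fresh arrays on the x axis and over 3 CLiP arrays on the y axis; 0 is the 75th percentile of the array, the solid line marks equal levels and the dotted lines a 2-fold difference. Phase I, urea cycle, amino acid and carrier protein genes (blue) lie below the line with few exceptions, most biliary and progenitor genes (red) lie far above it, and most cell cycle genes (orange) lie a smaller distance above it, with Tk1 below.

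The markers that define hepatocytes were all lower in the CLiPs but none was dim there. All 8 fell, with a median log2 fold change of -4.28. Their summed level was 911 to 1050 times the 75th percentile signal in CLiPs, against 4990 to 5680 times in fresh hepatocytes. Such sums add the linear signals of different probes, so the brightest probes weigh most and a sum can differ less than the median member. Alb, which encodes albumin, was at 8.02, 8.30 and 8.42 in CLiPs, against 10.58, 10.70 and 10.60 in fresh hepatocytes. The signal of the Alb probe thus stayed far above the 75th percentile of the array in CLiPs while it fell by 2.38 (SE 0.18, adjusted p = 3.23e-07). Cyp2e1, a cytochrome P450 that oxidises ethanol, was at -3.42, -3.65 and -3.58 in CLiPs, against 9.49, 9.71 and 9.13 in fresh hepatocytes, the largest fall among genes measured on all 6 arrays (log2 fold change -12.99). The 8 markers that define biliary and progenitor cells all rose, and 5 of them were dim in fresh hepatocytes. Their summed level was 479 to 515 times the 75th percentile signal in CLiPs and 1.67 to 2.69 times in fresh hepatocytes. In bulk RNA, fewer cells of a type and less RNA per cell cannot be told apart.

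Markers of other liver cells moved too, mostly down. Of 11 endothelial markers tested, 10 fell and none rose, and 5 of them, Cdh5, Kdr, Lyve1, Clec1b and Emcn, were dim in the CLiPs. Their summed level was 0.863 to 1.36 times the 75th percentile signal in CLiPs and 13.9 to 23.3 times in fresh hepatocytes. Of 13 Kupffer cell and macrophage markers, 10 fell, 2 rose and 6 were dim in the CLiPs (Adgre1, Clec4f, Cd5l, Vsig4, C1qa and C1qc). Cd14, a receptor for bacterial lipopolysaccharide, rose by 6.46, and Csf1r, the receptor of a macrophage growth factor, by 1.36 with another probe at -1.04. The summed level of the list was 44.8 to 52.9 in CLiPs and 12.6 to 43.9 in fresh hepatocytes. Among 4 lymphocyte markers 2 fell, with sums of 9.86 to 11.8 in CLiPs and 58.6 to 60.6 in fresh hepatocytes. One of 3 neutrophil markers fell (sums 71.1 to 86.8 and 91.8 to 102), and both erythroid markers fell (0.193 to 0.265 in CLiPs and 3.13 to 4 in fresh hepatocytes). Of 7 mesothelial markers listed, only Msln and Krt19 were tested. Both rose, with sums of 51.0 to 78.2 in CLiPs and 0.0498 to 0.0542 in fresh hepatocytes. Krt19 is also one of the biliary and progenitor markers above, so this sum is not particular to mesothelial cells.

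Markers of stellate cells and fibroblasts split. Of 11 tested, 7 rose and 2 fell, and their summed level was 24.2 to 81.0 in CLiPs and 97.6 to 117 in fresh hepatocytes. Col1a1, a chain of collagen I, was at 3.31, 1.78 and -0.92 in CLiPs, against -5.31, -5.40 and -5.44 in fresh hepatocytes, where it was dim. Col3a1, which forms collagen III, was at 2.63, 1.61 and -1.27 in CLiPs, against -2.30, -4.12 and -3.77 in fresh hepatocytes. The 3 CLiP arrays thus differed among themselves in these fibrillar collagens by far more than they did in Alb, yet each lay above all fresh arrays. Cxcl12, a chemokine of stromal cells, fell by 8.30. The part of these other cells in the results below was not tested.

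**Figure D2:**
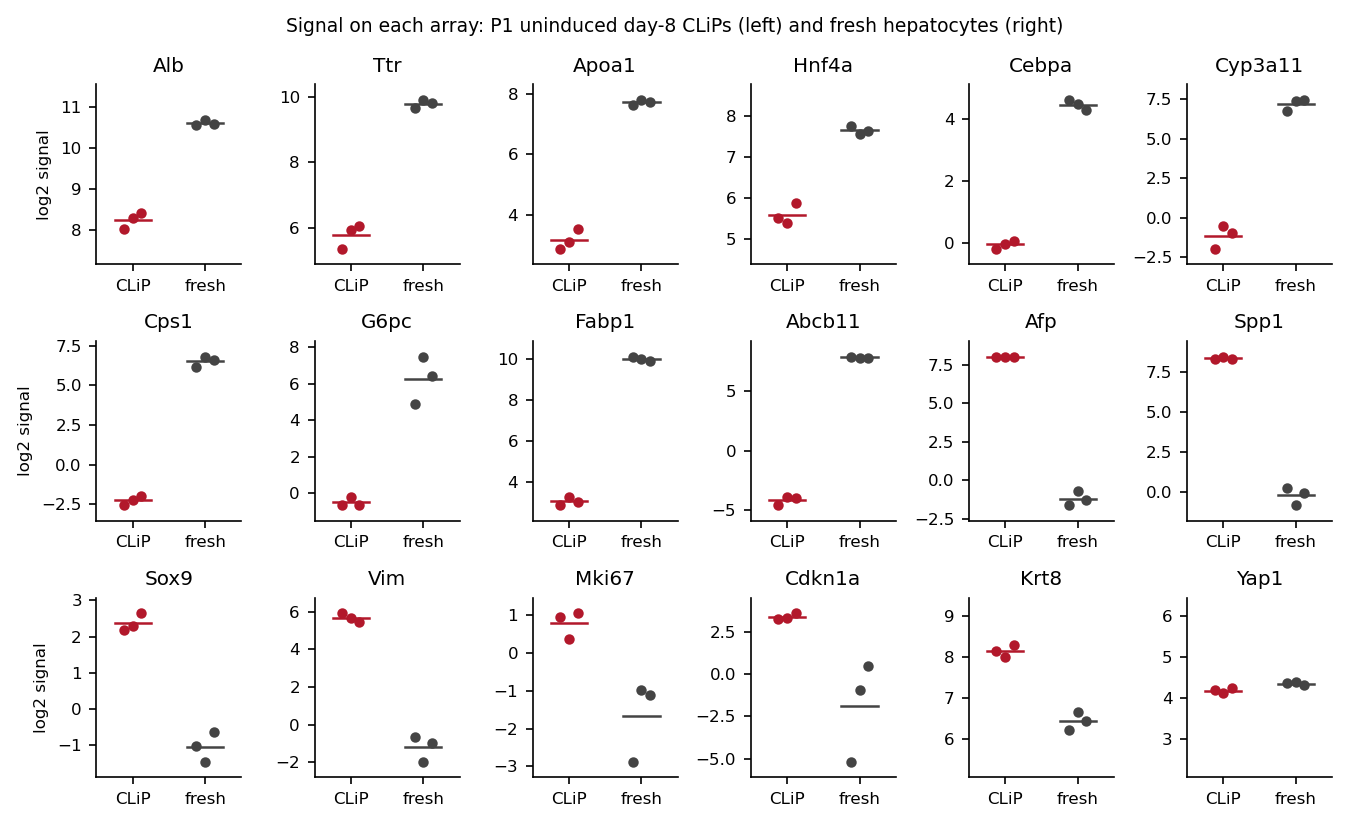
Log2 level of 18 genes on each of the 3 CLiP arrays (red, left) and 3 fresh arrays (grey, right), with the group mean as a line and a separate y axis for each gene, spanning at least 4 log2 units. The groups do not overlap in 18 of 18 panels. The difference between the group means runs from 0.17 in Yap1, which was not called, to over 12 in Abcb11, which was dim in CLiPs.

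Among genes measured on all 6 arrays, the 8 that rose most were Bicc1 (9.72), Anxa3 (9.51), Afp (9.24), Timp2 (8.92), Spp1 (8.61), Ccnd2 (8.49), Pamr1 (8.06) and Bex3 (8.01), as log2 fold changes. Bicc1 encodes an RNA-binding protein of epithelial tubules, Timp2 an inhibitor of matrix metalloproteinases and Ccnd2 cyclin D2. Bicc1 was at 7.26, 7.41 and 7.30 in CLiPs, against -2.49, -2.65 and -2.06 in fresh hepatocytes. A second probe of Anxa3 gave 3.31. The 8 that fell most were Cyp2e1 (-12.99), Mup2 (-12.96), Cyp2a4 (-11.56), Inmt (-11.30), Cyp2a12 (-11.22), Apoc3 (-11.19), Slc27a5 (-11.08) and Gnmt (-11.05). Gnmt makes sarcosine from glycine in methyl group metabolism, and Inmt methylates indole amines. A second probe of Apoc3 gave -2.71.

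The largest minimum changes upward, for genes dim in fresh hepatocytes, were in Cpe (at least 1273-fold), Ankrd1 (1198-fold), Basp1 (914-fold), Cd24a (761-fold), Phgdh (594-fold) and Cxcl5 (535-fold). Cpe encodes carboxypeptidase E, which trims peptide hormones, and was at 7.14, 6.63 and 7.30 in CLiPs, against -5.16, -5.29 and -5.22 in fresh hepatocytes. Downward they were in Cyp2f2 (at least 10160-fold), Adh1 (10120-fold), Mup17 (9738-fold), Ces3a (6328-fold), Car3 (6173-fold) and Hamp2 (5964-fold). Cyp2f2, a P450 of periportal hepatocytes, was at -6.26, -5.90 and -5.93 in CLiPs, against 9.43, 9.28 and 9.22 in fresh hepatocytes. Adh1 encodes the main alcohol dehydrogenase of liver, and another of its probes was above background in the CLiPs. The range of loss was therefore wide, from Alb, Trf and Hp, which fell by 2.38, 1.78 and 1.61, to genes without a signal well above background.

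**Figure D3:**
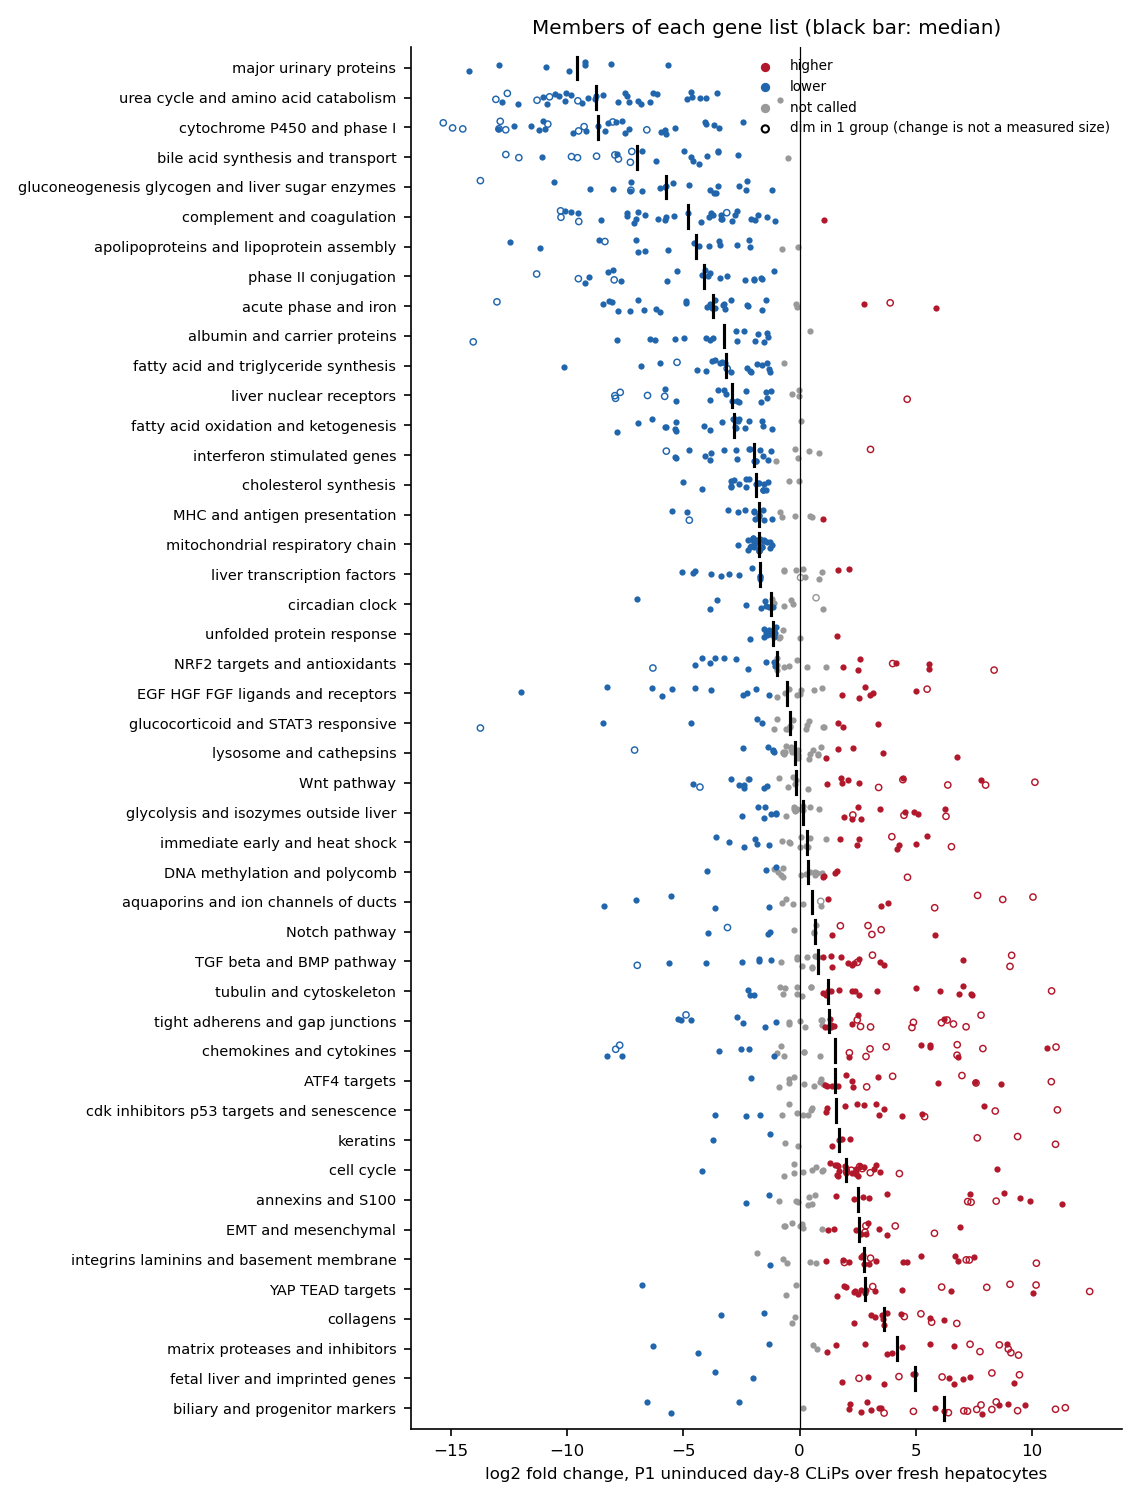
Log2 fold change of P1 uninduced day-8 CLiPs over fresh hepatocytes for each tested member of 46 gene lists, 1 list per row, with red for genes that rose, blue for genes that fell, grey for genes not called, open circles for genes dim in 1 group and a black bar at the list median. Medians run from -9.58 for major urinary proteins to 6.23 for biliary and progenitor markers.

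Plasma carrier proteins fell in graded steps. Of 18 tested, 17 fell and none rose, with a median of -3.23. The smallest falls were in Serpina1a, an inhibitor of elastase (-1.36), Gc, the vitamin D carrier (-1.39), and Ambp (-1.51). Ttr, the thyroxine carrier transthyretin, was at 5.35, 5.92 and 6.05 in CLiPs, against 9.66, 9.90 and 9.82 in fresh hepatocytes, a fall of 4.02 with no overlap. Serpina6, the carrier of corticosteroids, was at least 3651-fold lower. Serpina7, the thyroxine-binding globulin, was the one member not called (0.44, adjusted p = 0.246).

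Of 18 genes of apolipoproteins and lipoprotein handling, 16 fell and none rose, with a median of -4.44. Apoa1, the main protein of HDL, was at 2.87, 3.11 and 3.54 in CLiPs, against 7.63, 7.80 and 7.74 in fresh hepatocytes. Apoe, which clears remnant lipoproteins, fell by 2.14 and Apob, the backbone of VLDL, by 2.70, whereas Apoa5, which was above background on 2 of the 3 CLiP arrays, fell by 12.46. Apoc2, the activator of lipoprotein lipase, was not called (-0.08, adjusted p = 0.738). The major urinary proteins, which carry pheromones, all fell (8 of 8, median -9.58). Mup1 was at -1.13, -0.51 and -0.23 in CLiPs, against 10.28, 10.41 and 10.18 in fresh hepatocytes. These genes are near-identical copies whose probes can share targets, and a second probe of Mup3 went the other way (1.89).

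Drug metabolism fell as a block. All 35 phase I genes tested, P450s, flavin monooxygenases, carboxylesterases and dehydrogenases, fell, with a median of -8.67, or -8.36 with the 11 members dim in CLiPs at their minimum. Cyp3a11, which oxidises many drugs, was at -1.97, -0.54 and -0.95 in CLiPs, against 6.77, 7.38 and 7.46 in fresh hepatocytes (log2 fold change -8.36, SE 0.35, adjusted p = 3.18e-09). Cyp1a2, which metabolises caffeine, was at least 176-fold lower. The smallest falls were in Aldh1a1, a retinaldehyde dehydrogenase (-2.42), and Por, which passes electrons to all microsomal P450s (-3.47). All 22 conjugating enzymes of phase II fell as well, with a median of -4.13, from Ugt2a3, at least 1222-fold lower, to Gstp1, a glutathione transferase also found outside hepatocytes (-1.09).

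Promoters of genes that fell were searched for the exact letters CAAAGTCCA, a binding motif of HNF4, on both strands from 250 bases before to 50 after the start site, in RefSeq windows on GRCm38.p6 that 12082 of the tested genes had. It was present in 76 of them (0.629%), in 38 of 3135 genes that fell (1.21%), in 19 of 456 that fell by over 5 (4.17%) and in 19 of 2894 that rose (0.657%). Among phase I genes it was in 2 of 25, Cyp3a11 and Cyp2c70, and among 15 bile acid genes in Cyp8b1. The 250 bases before the start site of these 3 are shown with the match in capitals, as examples of liver promoters with the motif whose genes fell. Cyp3a11 is at chr5:145879855-145880104, Cyp2c70 at chr19:40187287-40187536 and Cyp8b1 at chr9:121916306-121916555, all on the minus strand.
Cyp3a11: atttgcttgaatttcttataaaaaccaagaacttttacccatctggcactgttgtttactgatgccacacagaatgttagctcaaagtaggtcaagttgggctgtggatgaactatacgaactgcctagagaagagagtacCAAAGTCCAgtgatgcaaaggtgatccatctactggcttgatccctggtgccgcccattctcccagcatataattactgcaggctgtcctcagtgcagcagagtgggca
Cyp2c70: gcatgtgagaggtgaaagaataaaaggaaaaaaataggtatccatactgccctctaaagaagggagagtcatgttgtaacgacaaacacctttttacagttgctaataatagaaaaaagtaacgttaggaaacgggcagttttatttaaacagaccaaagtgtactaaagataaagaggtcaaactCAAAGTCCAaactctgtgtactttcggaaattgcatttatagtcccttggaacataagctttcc
Cyp8b1: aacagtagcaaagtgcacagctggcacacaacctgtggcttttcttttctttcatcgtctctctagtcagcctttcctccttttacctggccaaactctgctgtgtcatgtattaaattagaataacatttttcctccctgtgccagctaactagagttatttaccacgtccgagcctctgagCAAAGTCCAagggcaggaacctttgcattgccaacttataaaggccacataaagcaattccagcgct
The matches begin 109, 64 and 67 bases before the start site of Cyp3a11, Cyp2c70 and Cyp8b1. A TATA box (TATAAA) was in 25% of the genes that fell by over 5, against 10.7% of all. The other liver motifs were rare. The full palindromic HNF1 motif was in 1 promoter of 12082, and the C/EBP motif TTGCGCAA was in 0.351% of genes that fell and 0.298% of all.

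Genes of nitrogen metabolism fell as well. In the urea cycle and amino acid breakdown 34 of 35 genes fell, with a median of -8.75, or -8.46 with the 5 dim members at their minimum. Cps1, which makes carbamoyl phosphate from ammonia, was at -2.57, -2.21 and -1.97 in CLiPs, against 6.19, 6.82 and 6.63 in fresh hepatocytes. Arg1, which releases urea, was at least 3643-fold lower and Otc at least 1812-fold lower, whereas Asl, the argininosuccinate lyase, fell by 4.68. Tat, which degrades tyrosine, was at -1.24, -1.14 and -1.24 in CLiPs, against 6.78, 7.62 and 7.37 in fresh hepatocytes.

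Among 21 genes of glucose release and glycogen, all fell, with a median of -5.76. G6pc, the catalytic subunit of glucose-6-phosphatase, was at -0.66, -0.22 and -0.63 in CLiPs, against 4.92, 7.49 and 6.44 in fresh hepatocytes, which differed among themselves more than the CLiPs did. Pck1, which commits carbon to gluconeogenesis, was at least 3892-fold lower. Bile acid synthesis and transport followed, with 21 of 22 members lower and a median of -7.00, or -6.02 with 9 dim members at their minimum. Abcb11, the bile salt export pump, was at -4.64, -3.95 and -4.05 in CLiPs, against 7.95, 7.86 and 7.82 in fresh hepatocytes, at least 3637-fold lower. Cyp7a1, the rate-limiting enzyme of bile acid synthesis, was at least 99.3-fold lower. Slc10a1, the uptake transporter NTCP, was not called with its brighter probe (-0.49), while its other probe gave -11.97, so the size of the difference rests on the probe.

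Lipid metabolism fell by less. Of 24 genes of fatty acid oxidation and ketogenesis, 23 fell, with a median of -2.83. Fabp1, the liver fatty acid-binding protein, was at 2.87, 3.30 and 3.02 in CLiPs, against 10.14, 10.03 and 9.94 in fresh hepatocytes, whereas Acadl, a dehydrogenase of long-chain acyl-CoA, fell by 1.19. Fgf21, a hormone of fasting, was at -3.20, -2.08 and -2.32 in CLiPs, against -0.32, -3.71 and -3.81 in fresh hepatocytes. The groups overlapped in Fgf21 because 1 fresh array lay above all the others (log2 fold change 0.08, adjusted p = 0.928). Without that array, fresh replicate 1, Fgf21 was called higher (1.22). Of 22 genes of fatty acid and triglyceride synthesis, 21 fell (median -3.17), led by Thrsp, a regulator of lipogenesis (-10.12). Among 21 genes of cholesterol synthesis 19 fell, by a median of -1.89, while Sqle (-0.02) and Srebf2 (-0.46), the transcription factor of this pathway, were not called.

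Transcription factors of the liver divided between those that fell and those not called. Of 21 tested, 11 fell, 2 rose and 8 were not called, with a median of -1.68. Hnf4a was at 5.52, 5.40 and 5.87 in CLiPs, against 7.76, 7.57 and 7.65 in fresh hepatocytes, a fall of 2.06 (SE 0.16, adjusted p = 5.11e-07). Cebpa, which holds hepatocytes out of the cell cycle, was at -0.19, -0.03 and 0.07 in CLiPs, against 4.62, 4.49 and 4.29 in fresh hepatocytes. Foxa2, a pioneer factor of endoderm, was at 4.06, 3.94 and 3.93 in CLiPs, against 4.06, 4.16 and 4.13 in fresh hepatocytes (-0.14, adjusted p = 0.206). Gata6, a factor of endoderm development, was among those that rose (1.67). Of 23 nuclear receptors, 19 fell and 1 rose, with a median of -2.89. The xenobiotic receptors Nr1i2 (PXR, at least 71.6-fold lower) and Nr1i3 (CAR, -5.31) were among them, as were the bile acid receptor Nr1h4 (-3.51) and the fatty acid receptor Ppara (-5.81). Vdr, the vitamin D receptor, was the one that rose, by at least 6.21-fold.

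Respiratory chain genes fell together, and the forms of some proteins of sugar metabolism changed in opposite directions. All 30 respiratory chain genes tested fell, within a narrow range of -2.65 to -1.19 and with a median of -1.73, though second probes of Sdha and Ndufa10 went the other way (0.93 and 1.34). Among 29 glycolytic genes and isozymes outside liver, 12 rose and 7 fell, with a median of 0.17, or 0.50 without fresh replicate 3. In a glucose transporter, pyruvate kinase and PEP carboxykinase, the form typical of liver fell and the other rose. Pkm, the pyruvate kinase of proliferating cells, was at 5.12, 4.55 and 5.13 in CLiPs, against 0.29, 0.38 and 0.53 in fresh hepatocytes, a rise of 4.54, while Pklr fell by 2.25. Slc2a2 fell by 5.76 and Slc2a1 rose by 2.25, and Pck1 was lower where Pck2 rose by 3.45. Other isozymes of the list were mixed. Hk2 (at least 4.92-fold), Pfkp (6.27) and Aldoa (1.91) rose, and Hk3 (-1.79) and Aldoc (-1.53) fell. Pfkl (0.15), Pfkm (-0.15) and Hk1 (0.17, with another probe at 6.67) were not called. Ldha, which hepatocytes also use, fell by 1.23. Gapdh was called lower at -1.03, but it was under 2-fold without CLiP replicate 2 (-0.97) or fresh replicate 2 (-0.99) and near 0 with quantile normalization (0.009).

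**Figure D4:**
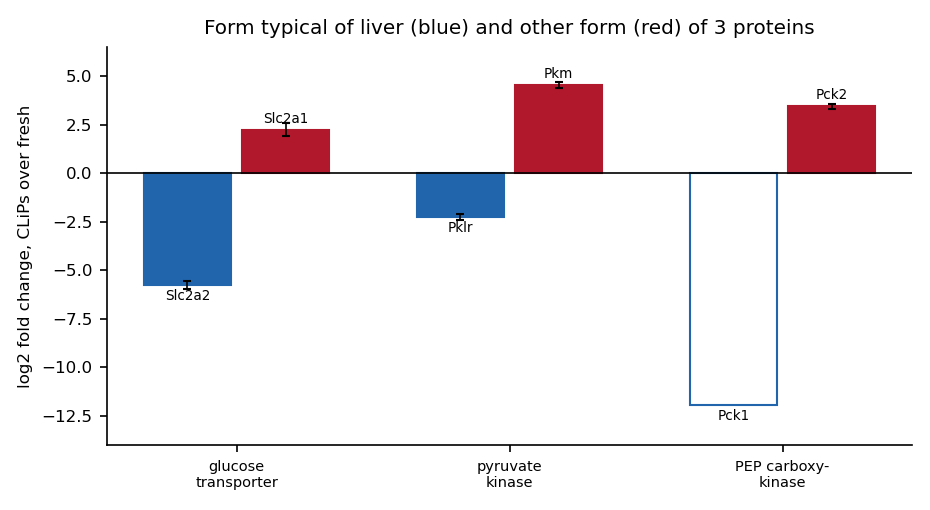
Log2 fold change of P1 uninduced day-8 CLiPs over fresh hepatocytes for the liver form (blue) and the other form (red) of a glucose transporter, pyruvate kinase and PEP carboxykinase; filled bars are measured changes with their SE from limma, and open bars are minimum changes of genes dim in 1 group. The 3 blue bars lie below 0 and the 3 red bars above it.

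Genes of bile ducts and liver progenitors rose. Of 29 tested, 25 rose and 3 fell, with a median of 6.23, or 5.09 with the 12 members dim in fresh hepatocytes at their minimum. Spp1, the secreted matrix protein osteopontin, was at 8.35, 8.48 and 8.35 in CLiPs, against 0.26, -0.83 and -0.07 in fresh hepatocytes. Krt19, a keratin of bile duct cells, was at 5.68, 5.52 and 6.01 in CLiPs, against -5.20, -5.32 and -5.35 in fresh hepatocytes, at least 521-fold higher. Every CLiP array lay far above every fresh array in Krt19, which was dim there. Krt7 was at least 134-fold, Epcam, an adhesion protein of ducts and progenitors, at least 47.0-fold, and Cd24a at least 761-fold higher. Sox9, the transcription factor of duct development, was at 2.18, 2.29 and 2.65 in CLiPs, against -1.03, -1.47 and -0.65 in fresh hepatocytes, a rise of 3.42 (SE 0.21, adjusted p = 5.89e-08). The 3 that fell were Anpep (-6.58), an aminopeptidase of the bile canaliculus, Aqp1 (-5.55), a water channel, and Lgr5 (-2.59), a Wnt-responsive receptor.

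Genes of fetal liver rose as well, 15 of 17 tested, with a median of 4.98. Afp, the fetal counterpart of albumin, was at 8.03, 8.01 and 8.00 in CLiPs, against -1.64, -0.71 and -1.32 in fresh hepatocytes, a rise of 9.24 (SE 0.22, adjusted p = 4.62e-11). Igf2, a fetal growth factor, was at least 162-fold higher, and the imprinted genes H19, Dlk1, Peg3 and Meg3 rose with it. H19 was at 3.68, 4.46 and 4.71 in CLiPs, against -1.73, -3.94 and -3.51 in fresh hepatocytes. Cdkn1c, an imprinted inhibitor of cyclin-dependent kinases, fell by 3.65 and Sall4, a fetal hepatoblast factor, by 2.01. Of Plagl1, a second probe was near 0 (-0.24) where the brighter one gave 6.44.

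Cell cycle genes were moderately higher in the CLiPs. Of 36 tested, 27 rose and 1 fell, with a median of 1.99, or 1.63 with the 6 members dim in fresh hepatocytes at their minimum. Mki67, a marker of cycling cells, was at 0.96, 0.37 and 1.06 in CLiPs, against -2.88, -0.98 and -1.10 in fresh hepatocytes (2.45, SE 0.43, adjusted p = 0.000325). Top2a, which untangles DNA for mitosis, was at 0.35, -0.12 and 0.52 in CLiPs, against -4.12, -2.46 and -2.59 in fresh hepatocytes. In both genes 1 fresh array lay well below the other two, and no CLiP array reached down to the fresh ones. Ccnd2 was at 8.12, 8.01 and 8.37 in CLiPs, against 0.23, -0.73 and -0.47 in fresh hepatocytes. Pcna (0.56) and Cdk2 (0.14) were not called. Tk1, a thymidine kinase of S phase, went the other way, at -0.80, -1.0 and -0.61 in CLiPs, against 3.30, 3.47 and 3.41 in fresh hepatocytes.

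At day 0 the same 36 genes stood higher. Their median against fresh hepatocytes was 4.75 at day 0, and against day 0 the day-8 CLiPs were lower in 31 of the 36 and higher in none, with a median of -3.23. Over all genes, 4.22% were lower and 6.33% higher at day 8 than at day 0. Mki67 was at 0.96, 0.37 and 1.06 at day 8, against 4.48, 4.36 and 4.34 at day 0, a fall of 3.60 (adjusted p = 0.000138). Both comparisons share the day-8 arrays. Of 29 cell cycle genes with a promoter window, 12 (41.4%) held TTTGAA. Its share was 15.3% in all genes and 25.4% in genes that fell by over 5. These letters are those of the cell cycle homology region (CHR), which the DREAM complex binds, but binding was not tested. Shares in other lists varied, for example 0 of 13 clock genes, 7 of 18 phase II genes (38.9%) and 3 of 5 major urinary protein genes (60%). CCAAT, bound by NF-Y, was in 21 of the 29 (72.4%), against 42.5% of all genes, and its share was higher still in other lists, such as cholesterol synthesis (15 of 15) and the unfolded protein response (94.1%). Promoters of 2 cell cycle genes are shown as examples of genes with TTTGAA that were higher than in fresh hepatocytes and lower than at day 0. Matches of TTTGAA on either strand are in capitals. Cdk1 is at chr10:69352913-69353162 and Top2a at chr11:99024190-99024439, both on the minus strand.
Cdk1: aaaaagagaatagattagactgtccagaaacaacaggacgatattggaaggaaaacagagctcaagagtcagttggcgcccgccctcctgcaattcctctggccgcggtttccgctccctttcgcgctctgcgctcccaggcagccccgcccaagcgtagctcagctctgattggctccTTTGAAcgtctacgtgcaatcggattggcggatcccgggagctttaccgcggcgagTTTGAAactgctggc
Top2a: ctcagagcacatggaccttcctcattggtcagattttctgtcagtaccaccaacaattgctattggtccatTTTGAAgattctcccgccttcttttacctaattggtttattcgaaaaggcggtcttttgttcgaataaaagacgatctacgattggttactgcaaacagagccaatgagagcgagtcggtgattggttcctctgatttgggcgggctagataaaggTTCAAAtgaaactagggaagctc
The match nearest to the start site begins 15 bases before it in Cdk1 and 23 in Top2a.

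Several inhibitors of the cell cycle rose. Of 24 genes of CDK inhibitors, p53 targets and senescence, 14 rose and 3 fell, with a median of 1.57. Cdkn2a, which encodes p16 and p19Arf, was at 5.65, 5.39 and 5.81 in CLiPs, against -5.42, -5.50 and -5.55 in fresh hepatocytes, at least 480-fold higher. Its neighbour Cdkn2b, which encodes p15, was at least 251-fold higher. Cdkn1a, the p53 target p21, was at 3.25, 3.31 and 3.59 in CLiPs, against -5.19, -0.95 and 0.45 in fresh hepatocytes. The fresh arrays spread over more than 5 log2 units in Cdkn1a, and its change had a large error (5.28, SE 1.07, adjusted p = 0.000882). Phlda3 (7.93) and Mdm2 (2.48), both p53 targets, rose, while Trp53 itself (0.38) and Cdkn1b (0.14) were not called.

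Most genes of a list of targets of YAP and TEAD, the effectors of the Hippo pathway, rose. The list also holds genes of the pathway itself, such as Yap1, Wwtr1 and Lats2. Of 22 tested, 19 rose and 1 fell, with a median of 2.84. Ankrd1, a repressor induced by stretch, was at 6.88, 6.99 and 6.95 in CLiPs, against -5.48, -5.57 and -5.62 in fresh hepatocytes, at least 1198-fold higher. Ccn2, the matricellular protein CTGF, was at 6.63, 7.09 and 6.68 in CLiPs, against -3.18, -4.03 and -2.61 in fresh hepatocytes, a rise of 10.07. Ccn1, its relative CYR61, rose by 3.24. Yap1 mRNA was at 4.19, 4.12 and 4.24 in CLiPs, against 4.36, 4.40 and 4.31 in fresh hepatocytes (-0.17, adjusted p = 0.122), while Tead2 (6.51), Tead1 (2.02) and Wwtr1, which encodes TAZ (1.90), rose. Nt5e, the ecto-nucleotidase CD73, fell by 6.80. The TEAD motif GGAATG was in 10 of 17 promoters of the list (58.8%), against 15.1% of all, 16.5% of genes that rose, 16.6% of genes that fell and 20.8% of those that fell by over 5. It was also in 4 of 5 promoters of major urinary proteins, which fell. The 10 promoters of the YAP and TEAD list included those of Yap1, Wwtr1 and Lats2. The promoters of Ankrd1 and Ccn1 are shown with these matches, on either strand, in capitals. They are at chr19:36119845-36120094 and chr3:145649986-145650235, both on the minus strand.
Ankrd1: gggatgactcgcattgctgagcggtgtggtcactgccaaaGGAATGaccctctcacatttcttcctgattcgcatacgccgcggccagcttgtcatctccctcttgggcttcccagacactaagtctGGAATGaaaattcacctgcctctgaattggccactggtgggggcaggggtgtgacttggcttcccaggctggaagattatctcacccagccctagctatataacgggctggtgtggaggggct
Ccn1: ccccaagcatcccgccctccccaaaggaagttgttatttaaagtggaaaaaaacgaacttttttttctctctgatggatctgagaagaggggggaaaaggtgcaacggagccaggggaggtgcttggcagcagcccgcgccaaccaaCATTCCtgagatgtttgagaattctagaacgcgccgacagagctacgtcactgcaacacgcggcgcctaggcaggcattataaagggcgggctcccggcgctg
The matches begin 210 and 123 bases before the start site in Ankrd1 and 103 bases before it in Ccn1.

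Growth factor genes changed in both directions. Of 26 ligands and receptors of the EGF, HGF, FGF and IGF families, 7 rose and 11 fell, with a median of -0.54. The EGF receptor ligands Areg (2.55), Tgfa (3.03) and Hbegf (3.16) rose, and Ereg was at least 9.95-fold higher. Igf1, the growth hormone target secreted by hepatocytes, was at -3.72, -3.53 and -5.19 in CLiPs, against 7.95, 7.87 and 7.75 in fresh hepatocytes, and the growth hormone receptor Ghr fell by 4.49, whereas the receptor Igf1r rose by 5.00. The receptors Met (0.07) and Egfr (-0.13) were not called. In Egfr the fresh arrays ran from 4.13 to 5.59 around the CLiP arrays at 4.68 to 4.86.

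Developmental pathways were mixed. Among 14 Notch genes 6 rose and 4 fell (median 0.69), with Jag1, a ligand that drives duct fate, up by 5.82 and the receptor Notch1 down (-3.96). Among 28 Wnt genes 12 rose and 9 fell (median -0.17). The ligands Wnt10a (at least 317-fold), Wnt7a (at least 98.4-fold) and Wnt7b (7.80) rose. Wnt7a was at 3.63, 3.47 and 2.89 in CLiPs, against -3.84, -4.99 and -5.22 in fresh hepatocytes. The pericentral Wnt targets Tbx3 (-4.59) and Lgr5 fell while Axin2, a general Wnt target, rose by 1.84. Among 31 TGF-beta and BMP genes 15 rose and 7 fell (median 0.79), with Tgfb3 at least 326-fold and Tgfb2 at least 113-fold higher, and the liver activin subunits Inhbc (at least 68.7-fold lower) and Inhbe (-4.02) lower.

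Genes of epithelial structure rose more often than they fell. Of 11 keratins 7 rose and 2 fell (median 1.72), and the hepatocyte pair Krt8 and Krt18 rose by 1.72 and 1.38. Krt8 was at 8.15, 8.01 and 8.29 in CLiPs, against 6.23, 6.65 and 6.43 in fresh hepatocytes. Of 34 junction genes 19 rose and 8 fell (median 1.27). Cdh1, E-cadherin, was at 5.30, 5.41 and 5.42 in CLiPs, against 2.96, 2.76 and 2.80 in fresh hepatocytes. The claudins Cldn6 (at least 58.3-fold), Cldn4 (at least 16.2-fold) and Cldn7 (6.23) rose. The connexins and the claudin that join hepatocytes, Gjb1 (-5.09), Gjb2 (-5.25) and Cldn1 (-4.67), fell.

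Mesenchymal, matrix and adhesion genes rose beside them. Of 25 genes tied to epithelial-mesenchymal transition 20 were tested, of which 13 rose and none fell (median 2.54). The transcription factors Snai1, Twist1 and Twist2 were not among those tested, nor were Pdgfra and Postn. Vim, the intermediate filament vimentin, was at 5.93, 5.69 and 5.45 in CLiPs, against -0.67, -1.98 and -1.0 in fresh hepatocytes, while the transcription factors Snai2 (-0.63) and Zeb1 (-0.66) were not called. Of 18 collagens 14 rose and 2 fell (median 3.62), including the basement membrane chains Col4a1 (6.23) and Col4a2 (5.60). Of 25 integrin and laminin genes 19 rose and 1 fell (median 2.77). Lamb3, a laminin chain of epithelial basement membranes, rose by 3.30 and the laminin receptor subunit Itgb4 by 7.49, with another Itgb4 probe at 0.79.

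Of 20 matrix proteases and inhibitors 15 rose and 3 fell (median 4.19), among them the urokinase pair Plau (at least 134-fold) and Plaur (at least 170-fold). Mmp7, the metalloproteinase matrilysin, was at 3.80, 3.79 and 3.67 in CLiPs, against -5.14, -5.29 and -4.12 in fresh hepatocytes, at least 132-fold higher. It was at -5.07, -3.05 and -3.49 at day 0, below all day-8 arrays (day 8 minus day 0 7.62, adjusted p = 3.03e-06). Of 22 annexins and S100 proteins 13 rose and 2 fell (median 2.54). S100a6, a calcium-binding protein of ducts, was at 8.13, 7.93 and 8.26 in CLiPs, against -3.24, -3.41 and -2.94 in fresh hepatocytes. Of 27 tubulin and cytoskeleton genes 16 rose and 3 fell (median 1.22), with Tubb2b at least 371-fold higher, Ezr, the microvillus linker ezrin, up by 7.02, and Actb not called (0.13).

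Duct channels split by gene. Of 18 aquaporins and channels 7 rose and 5 fell. Their median of 0.52 was 0.23 without CLiP replicate 2 and 0.32 without fresh replicate 2. The chloride channels Cftr (3.50) and Ano1 (at least 143-fold), and the potassium channel subunit Kcne3 (at least 249-fold), rose, while the hepatocyte aquaporins Aqp8 (-8.40) and Aqp9 (-7.03) fell. Among 15 genes of foregut, lung and gut epithelium, of 28 listed, 6 rose and 4 fell (median 0.70). Sftpd, a surfactant protein of lung, was at 6.58, 7.06 and 6.70 in CLiPs, against -3.03, -3.81 and -2.93 in fresh hepatocytes, and at 2.12, 2.63 and 1.98 at day 0. The day-8 arrays lay above day 0 by 4.54 (adjusted p = 1.84e-06). Both zones of the liver lobule lost their genes, with 15 of 17 pericentral genes lower and 1 higher (median -4.72) and 18 of 19 periportal genes lower and 1 higher (median -8.64).

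Innate immune proteins of the plasma fell. Of 35 complement and coagulation genes 34 fell (median -4.82), from Pros1 (-1.06, and -0.95 without fresh replicate 1) and Fgb, a fibrinogen chain (-1.42), to Mbl1, at least 334-fold lower. Masp1, a lectin pathway protease, was called higher (1.07), but its other probes reached -9.11, and it was under 2-fold without CLiP replicate 2 (0.97), fresh replicate 2 (0.92) or fresh replicate 3 (0.89). Of 30 acute phase and iron genes 25 fell and 3 rose (median -3.70). Hp, haptoglobin, was at 7.75, 7.85 and 7.65 in CLiPs, against 9.25, 9.60 and 9.22 in fresh hepatocytes. Hamp2 was at least 5964-fold lower and its paralogue Hamp, the iron hormone hepcidin, fell by 8.05. Lcn2, which binds bacterial siderophores, rose, with 7.34, 7.53 and 7.28 in CLiPs, against 2.06, 1.68 and 0.84 in fresh hepatocytes. Cp, ceruloplasmin, was not called (-0.14), and another of its probes gave 5.55.

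Of 28 chemokines and cytokines 14 rose and 8 fell (median 1.51, or 0.43 with dim members at their minimum). Ccl2, which attracts monocytes, was at 7.50, 7.53 and 7.70 in CLiPs, against -2.54, -3.60 and -3.16 in fresh hepatocytes. Cxcl5, which attracts neutrophils, was at least 535-fold higher, and Ccl20, which attracts lymphocytes, rose by 6.84. Osmr, the receptor of oncostatin M, was at 3.24, 3.34 and 2.81 in CLiPs, against -1.98, -3.06 and -2.39 in fresh hepatocytes. The CLiPs had not been given oncostatin M during the 8 days. Interferon-stimulated genes fell, 19 of 25 with 1 rise (median -1.94), for example Isg15 (-3.82). Genes of antigen presentation fell in 14 of 20 with 1 rise (median -1.75), for example H2-K1 (-1.92), while B2m fell by 1.56 with a second probe at 1.11.

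Stress programmes moved apart. Among 26 ATF4 targets 16 rose and 1 fell (median 1.54). The serine synthesis enzymes Phgdh (at least 594-fold) and Psat1 (8.68) and asparagine synthetase Asns (7.55) rose. Phgdh was at 5.91, 5.78 and 6.08 in CLiPs, against -5.15, -5.27 and -4.32 in fresh hepatocytes. The unfolded protein response fell by little, in 15 of 20 with 1 rise (median -1.16), with the chaperone Hspa5 at -1.20, or -0.96 without fresh replicate 2. Among 27 NRF2 targets and antioxidants 8 rose and 11 fell (median -0.96), with Nqo1 at least 18.6-fold lower and Gpx2 up by 5.59. Immediate early and heat shock genes divided, with 9 of 24 higher and 6 lower (median 0.32). Fos (-3.61), Jun (-1.94) and Egr1 (-1.30) fell, while Klf4 (5.01), Klf6 (4.28) and Myc (2.55) rose.

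Lysosomal, clock, chromatin and hormone-responsive lists had medians between -1.25 and 0.38. Among 28 lysosomal genes 5 rose and 6 fell (median -0.20). Among 16 clock genes 9 fell and none rose (median -1.25), led by Hlf (-6.99). Dbp was called lower (-3.54) but lost its call when any 1 of 5 of the 6 arrays was left out, and was at -1.62 without fresh replicate 1 and -5.36 without fresh replicate 3. Per2 (-0.29) and Clock (-0.67) were not called, although Clock was without fresh replicate 1 (-1.16). Among 20 genes of DNA methylation and polycomb 5 rose and 3 fell (median 0.38, or 0.25 without fresh replicate 2), with Uhrf1, which guides maintenance methylation, at least 15.9-fold higher and Tet1, a 5-methylcytosine oxidase, down (-4.00). Glucocorticoid- and STAT3-responsive genes were lower in 5 of 20 and higher in 3 (median -0.41). Fkbp5, a glucocorticoid target, was at 2.30, 2.01 and 2.10 in CLiPs, against 3.49, 3.09 and 2.77 in fresh hepatocytes, a difference of -0.98 (adjusted p = 0.000351) that passed 2-fold without CLiP replicate 1 (-1.06) or fresh replicate 3 (-1.16).

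**Figure D5:**
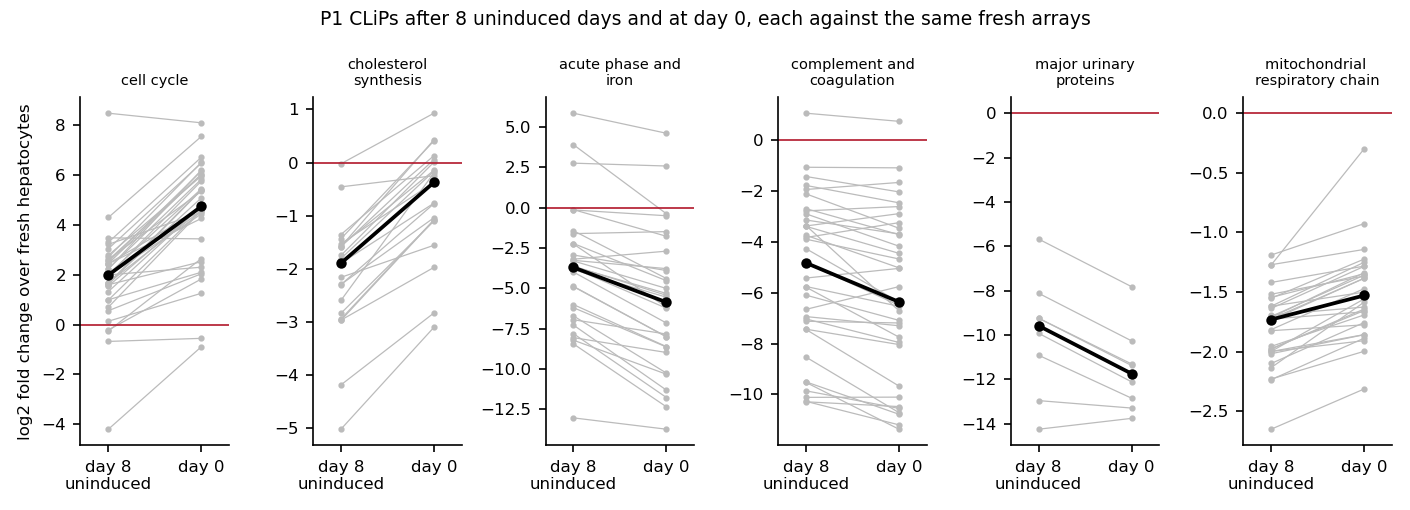
Log2 fold change over fresh hepatocytes of each tested member (grey) and the list median (black) for 6 gene lists in P1 CLiPs after 8 uninduced days (left) and at day 0 (right), with a red line at the fresh level and a separate y axis per list. At day 8 and day 0, in this order, the medians were 1.99 and 4.75 for cell cycle, -1.89 and -0.37 for cholesterol synthesis, -3.70 and -5.86 for acute phase and iron, -4.82 and -6.36 for complement and coagulation, -9.58 and -11.74 for major urinary proteins and -1.73 and -1.53 for the respiratory chain.

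Several lists differed between day 8 and day 0 of the uninduced culture. Over all genes tested, 6.33% were higher and 4.22% lower at day 8. Against day 0, 21 of 30 acute phase genes were higher at day 8 and none lower, as were 13 of 35 complement and coagulation genes and 6 of 8 major urinary proteins. Lbp, which binds lipopolysaccharide, was at 2.29, 2.87 and 1.94 at day 8, against -0.75, -0.36 and -0.67 at day 0, and at 3.72, 3.91 and 3.76 in fresh hepatocytes. Serpina3n, a protease inhibitor of the acute phase, was at 1.74, 1.21 and 0.73 at day 8, against -2.49, -3.10 and -2.52 at day 0, and at 3.27, 3.68 and 3.47 in fresh hepatocytes. Both genes stood between day 0 and fresh hepatocytes with no overlap. Cholesterol synthesis went the other way, with 17 of 21 genes lower at day 8 than at day 0 and none higher. Insig1, a sterol-regulated brake on this pathway, was at -2.01, -2.05 and -1.66 at day 8, against -0.01, 0.00 and 0.03 at day 0, and at 3.24, 3.10 and 2.98 in fresh hepatocytes. None of the 30 respiratory chain genes was called between day 8 and day 0, though their median was -0.32. Some were lower by less than 2-fold with an adjusted p under 0.05. The largest difference was in Cycs (-0.97, adjusted p = 6.87e-05 from limma). The contrasts with fresh hepatocytes share the fresh arrays, so their medians are given side by side without a test of their likeness.

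Several probes were present for 3028 of the called genes. In 383 of these another probe went the opposite way, and in 522 another probe went the same way by less than 2-fold, so the size of a change can rest on the probe. Among named genes with a wide gap between probes, the other end of the range was -5.31 for Otc, -2.01 for Igf1, -4.62 for Cyp7a1, 6.75 for Cdkn2a, 2.34 for Cdkn1a, 4.24 for Dlk1, 5.71 for Igf2, 4.38 for Psat1 and 4.57 for Plau. Some genes that rose were well above background on only some fresh arrays, so their change is less certain. S100a6, Ccn2, Col3a1, H19, Jag1, Psat1, Tead2, Ccl20, Areg, Gpx2 and Wnt7b were so on 1 of 3, and Sftpd, Ccl2, Top2a, Cdk1, Cdkn1a, Cftr, Tgfa and Igf1r on 2 of 3. Among genes that fell, Hlf was above background on 1 of 3 CLiP arrays, and Igf1, Nt5e and Lgr5 on 2 of 3. With slide as a random block (estimated correlation 0.535), 4798 genes rose and 5145 fell. This correlation rests on the P1 arrays, as each fresh array had its own slide. The block cannot take out a slide difference between the groups, which shared no slide.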

How the data were processed

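RNA was extracted with a microRNeasy kit and Cy3-labelled RNA was hybridised to 1-colour Agilent arrays, per the labels' protocols. The deposited scanner files hold a processed signal intensity per spot, which the scanner software had background-corrected, per the file headers. The deposited series table holds log2 values that equalled the log2 processed signal minus the array's 75th percentile, up to a constant (median absolute difference 1.9e-07), and served as an alternative. Control spots and flagged outliers were left out, spots of a probe were averaged, and log2 intensities were centred on each array's 75th percentile. Each gene took its brightest probe, by the average of both group means, and was tested if well above background on all arrays of at least 1 group. Symbols were updated through RefSeq accessions. limma 3.58.1 in R 4.3.3 (lmFit, eBayes) was fitted over 12 fresh and P1 arrays, with Benjamini-Hochberg adjustment over all 20226 genes. The fit was tested on simulated data. Whether replicate numbers pair the samples is not in the labels, and no pairing was used in the main fit. The array number limits the precision. Some genes are not reported here. The comparison, gene lists and named genes were chosen with earlier results of these data known. Named were a core of liver and progenitor genes, the 8 highest and 8 lowest genes measured on all 6 arrays, the 6 largest minimum changes each way, and the leading, opposing and least changed members of each list, with members named as examples of a role.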

Additional observations from a re-analysis of the deposited data

How the results depend on the processing

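The counts of 4836 genes that rose and 5144 that fell stayed within 1.5 times under 15 of the 16 alternatives run. Requiring a signal well above background on all 6 arrays left 15753 genes, of which 2331 rose and 4165 fell, since genes dim in fresh hepatocytes were then not tested. Leaving out 1 array in turn gave 4812 to 5046 genes that rose and 4999 to 5398 that fell. With replicate number as a block, 4840 rose and 5150 fell. Correlations of deviations between day-8 and fresh arrays of the same number (-0.0135, 0.00912 and 0.00122) do not support a pairing of these groups. Day 8 and day 0 were not checked in this way. Quantile normalization moved the median of all genes to 0.12 and normexp background correction to -0.15, against -0.03, so small changes depend on the scaling. Of 527 named genes, 455 kept their call under every alternative in which they were tested. Only 368 of the 527 were tested where all 6 arrays had to be above background. Under quantile normalization the direction turned for Serpina1a (0.19), Serpina1c (0.036), Gapdh (0.009) and the medians of the lysosomal (0.41) and glucocorticoid and STAT3 (0.076) lists. Under normexp the foregut median was -0.10. Others of the 58 list medians kept their sign but moved beyond the spread of the replicate arrays. These were 34 under quantile normalization and 36 under normexp. They were 27 with the mean of all probes and 27 with all 6 arrays above background. Each other alternative moved 7 or fewer. With all 6 arrays above background, medians turned for glycolysis and isozymes (-0.11), fetal and imprinted genes (-0.082), duct channels (-0.69), chemokines (-0.73), foregut (-1.51) and Kupffer cell markers (1.36). With the mean of all probes the Wnt median was 0.071, and Masp1 (-3.31), Cp (2.33), Dll1 (-2.02) and Mt1 (-1.28) turned. Leaving out 1 array in turn gave a Wnt median of -0.262 to 0.02, the highest without fresh replicate 1. Apart from what an alternative itself removes, the cause was not tested. Genes near background have uncertain sizes.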
